A study of Mus musculus with 12 samples.

Results

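The genes described here encode the mitochondrial respiratory chain and ATP synthase in natural killer (NK) cells, a class of innate lymphocyte, grown from mouse spleen. Members were taken by symbol from the table of 11706 genes: symbols beginning Nduf followed by a, b, c, s or v, Sdha to Sdhd, those beginning Uqcr, Cyc1, Cox4 to Cox8 and those beginning Atp5 for the nuclear genes, and mt-Nd, mt-Co, mt-Cytb and mt-Atp for the mitochondrial genome. This gave 98 genes, 85 nuclear and 13 mitochondrial, none of them marked as a pseudogene. All 98 averaged at least 1 RPKM, a read density per gene length scaled to the mapped reads, and were tested with the 11142 genes that passed that filter. The rule used symbols only, and it was chosen with earlier results of these data known.

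Splenocytes of C57BL6 mice were grown with IL-15 (10 ng per mL) over 6 days, NK cells were purified on magnetic columns, and RNA was taken after 18 hours with IL-2 (330 U per mL) and IL-12 (10 ng per mL), per the labels. In the genotype experiment the PKM2 WT animals were NCR1Cre het, and the PKM2 KO animals were NCR1Cre het with PKM2 fl/fl, so both carried the Cre driven by Ncr1, a gene of NK and related innate lymphoid cells. PKM2 is the M2 isoform of pyruvate kinase, the last enzyme of glycolysis. In the drug experiment, cells labelled WT, with no Cre named, received DMSO at 0.1% (vehicle) or TEPP-46, an activator of PKM2. The labels give the TEPP-46 dose as 50 mM, the series' design text gives 50 µM and names PBS beside it, and age and sex are not given in the labels. There were 3 libraries each of PKM2 WT, vehicle and TEPP-46, and 2 of PKM2 KO, whose replicate 3 was not analysed here.

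As background, the chain passes electrons from NADH through complex I or from succinate through complex II to coenzyme Q, then through complex III and cytochrome c to complex IV, which reduces oxygen. Complexes I, III and IV pump protons across the inner mitochondrial membrane, and complex V, the ATP synthase, uses their return to make ATP. The mitochondrial genome encodes the hydrophobic core subunits of complexes I, III, IV and V, while complex II is wholly nuclear, so each mixed complex needs transcripts from both genomes. Activated NK cells raise both glycolysis and oxidative phosphorylation, and the latter has been linked to their interferon gamma production under some stimuli.

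Before any comparison, the libraries were read for what they hold. Pkm, the targeted gene, stood at a mean of 206 RPKM in PKM2 WT and 77.5 RPKM in PKM2 KO, a ratio of 0.377. The authors' deposited table gives a Pkm ratio of 0.539 for the columns headed 2/12 and 0.396 for those headed US, an abbreviation the labels do not explain. Ifng, which IL-12 induces in NK cells, lay between 22.7 and 24.2 RPKM in the libraries labelled PKM2 WT and between 18.8 and 24.3 in those labelled PKM2 KO, against 1014 to 1083 RPKM in vehicle. The genotype libraries are labelled with the same cytokines as vehicle, so PKM2 WT and PKM2 KO below mean the libraries labelled so. Whether those cells had received the cytokines was not tested, and if they had not, every value of vehicle against PKM2 WT would also be one of stimulated against unstimulated cells, and PKM2 KO against PKM2 WT one among unstimulated cells. All 10 NK markers looked for were listed, with summed levels between 9176 and 12047 RPKM in the genotype libraries and between 21141 and 25483 in the drug experiment. In the genotype libraries its largest part was Gzma, at 3772 to 6209 RPKM, against 3610 to 5882 in the drug experiment. In the drug experiment its largest part was Gzmb, at 13962 to 15778 RPKM, against 2508 to 2884 in the genotype libraries. Klrb1c went the other way, at 369 to 407 RPKM in the genotype libraries and 39.5 to 55.0 in the drug experiment, as did Ncr1, at 232 to 258 and 90.5 to 134 RPKM, and Eomes, at 85.2 to 90.8 and 56.9 to 70.3 RPKM. None of the 5 B cell and none of the 6 erythroid markers was listed. Of 8 T cell markers 2 were listed, Cd3g and Cd3d, while Cd3e, Cd4, Cd5, Cd6, Cd8a and Cd8b1 were not. The T cell sums lay between 79.0 and 110.4 RPKM in PKM2 WT and between 8.99 and 21.2 RPKM in every other group. Cd3g made up most of each T cell sum. Of 6 markers of granulocytes, basophils and mast cells 4 were listed, Mcpt8, Cpa3, Fcer1a and Ms4a2, and S100a8 and S100a9 were not. Their sums were 80.0, 86.8 and 188 RPKM in PKM2 WT, 71.1 and 44.0 RPKM in PKM2 KO and between 6.62 and 18.5 RPKM in the drug experiment. Of 5 dendritic cell markers 3 were listed, Flt3 and Siglech not, with sums between 243 and 282 RPKM in the genotype libraries and 21.8 to 29.3 RPKM in the drug experiment. In the genotype libraries nearly all of that sum was Itgax, at 239 to 278 RPKM, with Xcr1 at 1.23 to 1.96 RPKM. In the drug experiment Itgax was at 9.80 to 16.3 RPKM and Xcr1 at 10.4 to 14.2 RPKM. Zbtb46 was at 0.98 to 2.42 RPKM in all libraries. Of 6 monocyte and macrophage markers 1 was listed, at 7.64 to 21.1 RPKM in all libraries. Rn7s1, Rn7s2 and Rn7sk, RNAs without a poly(A) tail, took 48.3% to 56.2% of the summed RPKM in the genotype libraries and 32.4% to 42.0% in the drug experiment. The read depth behind the values is unknown, so no counting interval is given.

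All 5 complexes were expressed in every group, and their members spanned a wide range of levels. In PKM2 WT the median nuclear member other than Cox7a1 stood at 76.3 RPKM, between Ndufaf6 at 1.90 RPKM and Uqcrh, the hinge protein of complex III, at 478 RPKM. In vehicle the median was 109 RPKM, and the highest nuclear member was Atp5b, the catalytic beta subunit of ATP synthase, at 914 RPKM. Among nuclear subunits of the mixed complexes, those of complex I had the lowest median, 50.6 RPKM in PKM2 WT. It was 69.5 RPKM for complex III, 159.6 for complex V and 195 for complex IV without Cox7a1. The assembly factors of complex I had a median of 10.2 RPKM. Among isoforms, the tissue-specific Cox7a1, known from heart and skeletal muscle, was at 2.36, 1.24 and 1.62 RPKM in the PKM2 WT libraries and 1.53, 2.42 and 1.60 RPKM in vehicle, while its widely expressed counterpart Cox7a2 was at 94.6 and 193 RPKM. The isoforms Cox4i2, Cox6a2, Cox6b2, Cox8b, Cox8c and Ndufa4l2 were not analysed here. Many of these genes have processed pseudogenes, and mitochondrial genes have nuclear copies. The sources used here do not give how shared reads were counted, so the levels are uncertain to that extent.

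The strongest contrast among the members lay between the control libraries of the experiments, vehicle against PKM2 WT. Both sets are labelled as wild type for PKM2 and as kept in IL-2 and IL-12, but experiment, Cre, solvent and group cannot be told apart, so what follows describes these libraries. Nuclear respiratory chain genes were higher in vehicle and most mitochondrially encoded ones lower. Of the 85 nuclear members, 69 were higher (81.2%, where 38.6% of all genes tested were higher) and 6 lower (7.06%, where 36.7% of all genes were lower), by limma with a Benjamini-Hochberg adjusted p under 0.05. Of the 13 mitochondrial members, 1 was higher (7.69%) and 8 were lower (61.5%). The median log2 difference was 0.70 over the nuclear and -0.68 over the mitochondrial members, and 0.00 over all genes. These differences are on the log2(RPKM + 1) scale, which understates those of low genes. In bulk RNA, fewer cells of a type and less RNA per cell cannot be told apart. The Ifng, marker and Rn7 values above differ between the same libraries, and their part in these differences was not tested.

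**Figure D1:**
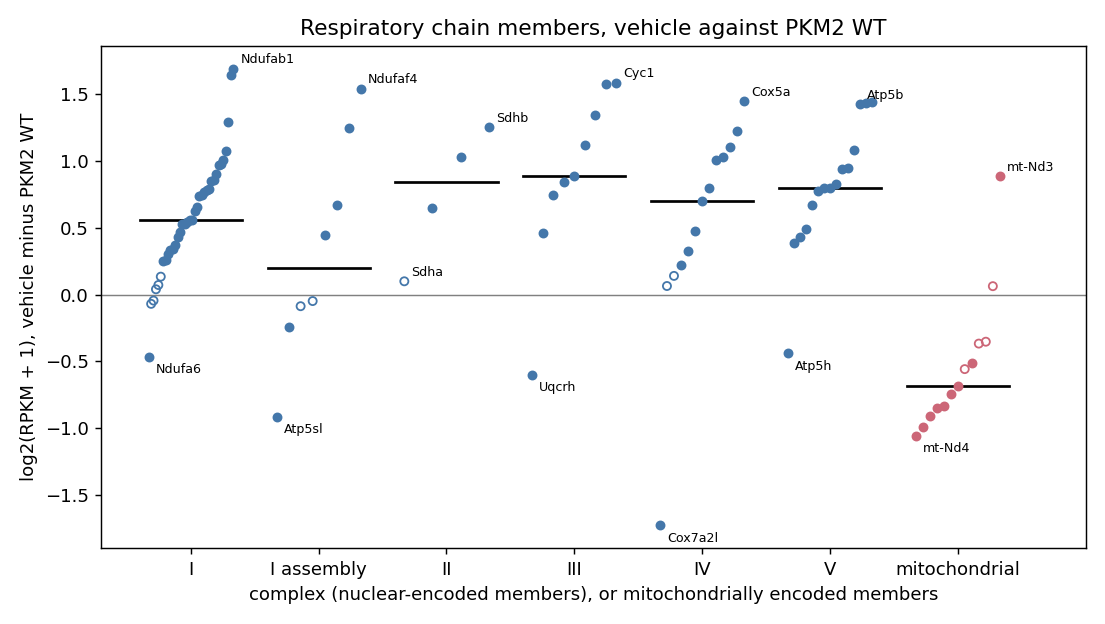
Each point is 1 of the 98 members, placed by complex on the x axis and ordered by value within it; the y axis is the difference of mean log2(RPKM + 1), vehicle minus PKM2 WT. Filled points passed an adjusted p of 0.05 (limma), open points did not, and bars are medians. The nuclear subunits of complexes I to V lie mostly above 0, with medians of 0.56, 0.84, 0.89, 0.70 and 0.80, and 11 of the 13 mitochondrial members lie below it, as do 49.7% of all genes.

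In complex I, 30 of 36 nuclear subunits were higher and 1, Ndufa6, was lower. The largest rise was that of Ndufab1 (ENSMUSG00000030869, chromosome 7, 122085403 to 122101886, GRCm38), the mitochondrial acyl carrier protein, which is both a complex I subunit and a carrier in lipoic acid synthesis. Ndufab1 was at 45.3, 33.5 and 45.0 RPKM in the PKM2 WT libraries and 129.8, 124 and 148 RPKM in vehicle, a log2 difference of 1.68 (SE 0.12, limma adjusted p = 9.89e-07). All 3 vehicle libraries stood far above all 3 PKM2 WT libraries. Ndufb6, an accessory subunit of the membrane arm, was at 21.5, 19.5 and 19.2 RPKM in the PKM2 WT libraries and 63.3, 65.3 and 64.5 RPKM in vehicle (log2 difference 1.64, SE 0.09, limma adjusted p = 1.68e-07). Ndufs5, an accessory subunit on the intermembrane side, had the smallest p of the complex, with 54.4, 54.4 and 53.7 RPKM in the PKM2 WT libraries and 94.0, 96.2 and 91.7 RPKM in vehicle (log2 difference 0.78, limma adjusted p = 1.56e-07). In both cases the groups were clearly apart and tight within.

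Among the nuclear core subunits of complex I, which carry the flavin and the iron-sulphur clusters, the size of the rise varied. Ndufv1, which holds the NADH binding site, averaged 29.7 ± 2.28 RPKM in PKM2 WT and 54.4 ± 2.95 RPKM in vehicle (SD, n = 3 each; log2 difference 0.85, limma adjusted p = 1.90e-06). Its partner Ndufv2 was higher by a log2 difference of 0.62, Ndufs1 by 0.73, Ndufs7 by 0.56, Ndufs3 by 0.52 and Ndufs8 by 0.26, all past the threshold. Ndufa6, an accessory subunit of the peripheral arm, was the 1 lower subunit, at 125, 119 and 125 RPKM in the PKM2 WT libraries and 86.0, 93.8 and 85.6 RPKM in vehicle (log2 difference -0.47, limma adjusted p = 4.29e-05), without overlap. At the ends of the range of levels, Ndufa3 averaged 147 RPKM in PKM2 WT and 185 in vehicle and Ndufa11 at 5.64 and 12.0 RPKM, both higher in vehicle.

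Of the 8 members that build complex I rather than form it, 4 were higher and 2 lower, beside 38.6% and 36.7% of all genes. Ndufaf4, an early assembly factor, was at 3.28, 3.51 and 2.69 RPKM in the PKM2 WT libraries and 11.6, 7.89 and 14.5 RPKM in vehicle, a log2 difference of 1.54 (SE 0.20, limma adjusted p = 6.18e-05). Ndufaf6 was at 1.33, 1.62 and 2.74 RPKM in the PKM2 WT libraries and 5.67, 5.02 and 6.48 RPKM in vehicle (log2 difference 1.24, limma adjusted p = 0.000493). Vehicle was higher without overlap for both, from levels that were among the lowest of the 98. Atp5sl, which despite its name is a complex I assembly factor (Dmac2), was lower, at 23.9, 27.0 and 28.1 RPKM in the PKM2 WT libraries and 13.4, 12.6 and 14.3 RPKM in vehicle (log2 difference -0.92, limma adjusted p = 2.29e-06). Ndufaf3 was at 17.9, 22.9 and 20.4 RPKM in the PKM2 WT libraries and 18.0, 16.1 and 17.1 RPKM in vehicle (log2 difference -0.24, limma adjusted p = 0.0485). Its groups overlapped, and the call was lost without PKM2 WT replicate 2 (log2 difference -0.16, adjusted p = 0.181) and without most of the other libraries in turn.

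Complex II, succinate dehydrogenase, links the chain to the tricarboxylic acid cycle, and 3 of its 4 genes were higher in vehicle. Sdhb, the iron-sulphur subunit, was at 61.8, 52.2 and 51.6 RPKM in the PKM2 WT libraries and 130.2, 134 and 132 RPKM in vehicle (log2 difference 1.25, SE 0.07, limma adjusted p = 1.72e-07). The membrane anchors Sdhc and Sdhd were higher by 0.65 and 1.03 on the log2 scale. Sdha, the flavoprotein that oxidises succinate, was at 72.1, 65.9 and 65.7 RPKM in the PKM2 WT libraries and 70.5, 70.9 and 76.9 RPKM in vehicle, ranges that overlapped (log2 difference 0.10, 95% interval -0.03 to 0.23, limma adjusted p = 0.157). The mean levels of Sdha and Sdhb, the catalytic pair, were 67.9 and 55.2 RPKM in PKM2 WT and 72.8 and 132 RPKM in vehicle.

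In complex III, which carries electrons from coenzyme Q to cytochrome c, 8 of 9 nuclear subunits were higher and 1 lower. Cyc1, the cytochrome c1 haem subunit, was at 29.0, 23.6 and 21.1 RPKM in the PKM2 WT libraries and 73.3, 74.4 and 77.2 RPKM in vehicle (log2 difference 1.58, SE 0.10, limma adjusted p = 3.41e-07). Uqcrq, a small structural subunit, was at 36.8, 36.9 and 37.5 RPKM in the PKM2 WT libraries and 109, 125 and 103 RPKM in vehicle (log2 difference 1.57, limma adjusted p = 6.38e-07). Neither gene had a vehicle library near the PKM2 WT range. The Rieske iron-sulphur protein gene Uqcrfs1 was higher by 0.89 on the log2 scale, Uqcr10 by 1.34, and the core proteins Uqcrc1 and Uqcrc2 by 0.84 and 0.46. Uqcrb had a log2 difference of 0.74 (limma adjusted p = 8.72e-07). Uqcrh, the most abundant nuclear member in PKM2 WT, was lower, at 462, 494 and 479 RPKM in the PKM2 WT libraries and 303, 316 and 325 RPKM in vehicle (log2 difference -0.60, limma adjusted p = 9.06e-06), without overlap.

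In complex IV, cytochrome c oxidase, 10 of 13 nuclear members were higher and 1 lower. Cox5a, a subunit on the matrix side, was at 88.4, 76.8 and 78.3 RPKM in the PKM2 WT libraries and 229.6, 223 and 214 RPKM in vehicle (log2 difference 1.44, SE 0.08, limma adjusted p = 1.88e-07). Ndufa4, now known as a complex IV subunit despite its name, was at 93.0, 87.6 and 77.9 RPKM in the PKM2 WT libraries and 192, 201 and 210.5 RPKM in vehicle (log2 difference 1.22, limma adjusted p = 3.64e-07). Each of them stood apart from the PKM2 WT libraries in all 3 vehicle libraries. The zinc-binding subunit Cox5b was higher by 1.01 on the log2 scale, Cox6a1 by 1.10, Cox7a2 by 1.03, Cox7b by 0.79, Cox8a by 0.70 and Cox6b1 by 0.32. Cox4i1, the ubiquitous form of subunit 4, was at 364, 325 and 317 RPKM in the PKM2 WT libraries and 360.0, 381 and 364 RPKM in vehicle. Its groups overlapped and the difference of 0.14 did not pass (95% interval -0.01 to 0.29, limma adjusted p = 0.0903). With quantile normalization, which forces every library to one distribution, Cox4i1 and Sdha changed sign and were called lower in vehicle, with log2 differences of -0.13 and -0.16.

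Cox7a2l had the largest difference of all 98 members on the log2(RPKM + 1) scale, and it went the other way. As a plain ratio of means the rise of Ndufaf4, 3.59-fold, was larger. The gene (ENSMUSG00000024248, chromosome 17, 83501918 to 83517330, GRCm38) encodes a relative of Cox7a2 that joins complexes III and IV into respiratory supercomplexes. It was at 318, 308 and 306 RPKM in the PKM2 WT libraries, 305 and 305 in PKM2 KO, 86.1, 102 and 92.5 in vehicle and 83.3, 102 and 90.9 in TEPP-46. The 5 genotype libraries lay within a narrow band far above the 6 libraries of the drug experiment. The log2 difference of vehicle from PKM2 WT was -1.72 (SE 0.08, limma adjusted p = 6.74e-08). Cox7a2 moved in the opposite direction in the same libraries, so that Cox7a2l stood 3.32-fold higher in PKM2 WT and Cox7a2 2.04-fold higher in vehicle. The C57BL6 strain is known to carry a short, unstable form of the Cox7a2l protein, which the RNA level does not show.

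In complex V, 14 of 15 nuclear members were higher. The 5 subunits of the catalytic F1 head were all among them. Atp5b was at 359, 326 and 336 RPKM in the PKM2 WT libraries and 904, 912 and 926 RPKM in vehicle, a log2 difference of 1.42 (SE 0.05) with the smallest adjusted p of all members (1.87e-08, limma). Its structural partner Atp5a1 was at 197, 191 and 189.9 RPKM in the PKM2 WT libraries and 324, 327 and 337 RPKM in vehicle (log2 difference 0.77, limma adjusted p = 2.00e-07). The alpha and beta subunits, which form the hexamer in equal numbers, thus differed in size of change, and the stalk subunits Atp5c1, Atp5d and Atp5e were higher by 0.38, 0.80 and 1.08 on the log2 scale. The genes Atp5g1, Atp5g2 and Atp5g3 encode the same mature c subunit of the rotor from different loci. Atp5g1 was at 82.3, 72.6 and 73.1 RPKM in the PKM2 WT libraries and 203, 191 and 230.4 RPKM in vehicle (log2 difference 1.44, limma adjusted p = 2.85e-07), and Atp5g3 at 100.2 and 269.6 RPKM (1.43, limma adjusted p = 1.07e-06). Atp5g2 was the highest of the 3 in PKM2 WT, at 175 RPKM, and rose least, to 234 RPKM (0.43, limma adjusted p = 0.00166). Atp5h, the d subunit of the peripheral stalk, was the 1 lower member, at 459, 444 and 461 RPKM in the PKM2 WT libraries and 326, 326 and 354 RPKM in vehicle (log2 difference -0.44, limma adjusted p = 0.000317), without overlap.

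Within a complex the levels of the nuclear subunits lay closer together in vehicle than in PKM2 WT, for complexes I, III, IV and V but not II. The SD of log2 RPKM among members was 0.95 in PKM2 WT and 0.79 in vehicle for complex I, 1.31 and 0.83 for complex III, 0.80 and 0.61 for complex IV without Cox7a1, and 0.69 and 0.60 for complex V. For complex II it was 0.76 and 0.86. In complex III the highest member, Uqcrh, stood 19.5-fold above the lowest in PKM2 WT and 4.81-fold in vehicle. These are descriptions over members of the same libraries, with no test.

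Promoters of the nuclear members are shown because NRF1, GABP (an ETS factor) and YY1 are known activators of respiratory chain genes, and because members with the same motifs differed in opposite directions. RefSeq windows from 250 bases before to 50 bases after the start (GRCm38.p6) were found for 70 of 85 nuclear members, as 75 promoters. On either strand, the NRF1 motif, GCGCA and GCGC with 1 base between, was in 26.7% of them, 11.0% of promoters of genes tested and 4.6% of all promoters. The ETS motif CCGGAAG was in 22.7%, 20.2% and 8.86%, and the YY1 motif AAGATGG in 13.3%, 7.72% and 6.34%. None of these motifs contains another, but matches may overlap. Among promoters of members higher in vehicle, the NRF1 share was 27.4%, close to that of all members. The stretches below lie upstream of the start, with the NRF1 and ETS matches on either strand in capitals. They are the 3 members with both matches upstream of the start (Atp5k has its ETS match after it), and Ndufaf4, which had the largest rise among those with an NRF1 match there.
Cox6a1, chr5:115348959-115349135, minus strand: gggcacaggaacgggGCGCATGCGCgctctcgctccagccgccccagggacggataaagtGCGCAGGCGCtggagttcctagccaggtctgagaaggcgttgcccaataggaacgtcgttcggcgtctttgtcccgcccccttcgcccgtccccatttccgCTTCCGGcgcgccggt
Sdhd, chr9:50603874-50603943, minus strand: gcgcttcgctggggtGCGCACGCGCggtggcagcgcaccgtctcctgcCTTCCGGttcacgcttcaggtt
Atp5h, chr11:115419936-115420075, minus strand: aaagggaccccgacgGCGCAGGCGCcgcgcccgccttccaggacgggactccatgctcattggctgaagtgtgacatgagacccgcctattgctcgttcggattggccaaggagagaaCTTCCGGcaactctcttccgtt
Ndufaf4, chr4:24897955-24897994, plus strand: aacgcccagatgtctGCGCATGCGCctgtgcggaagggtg
Cox6a1, Sdhd and Ndufaf4 were higher in vehicle, by 1.10, 1.03 and 1.54 on the log2 scale, and Atp5h was lower, with a log2 difference of -0.44. A match is a description of letters, and binding was not measured.

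The mitochondrial genome gave a different picture. Its 13 protein genes are transcribed as long RNAs from both strands and cut apart. Genes on the same strand are thus transcribed together and can differ in processing and decay. Of the 7 complex I genes, mt-Nd4, mt-Nd5 and mt-Nd6 were lower in vehicle, as were mt-Cytb of complex III, mt-Co1 and mt-Co2 of complex IV and both complex V genes. mt-Co1, the haem and copper subunit that reduces oxygen, was at 5352, 4889 and 6678 RPKM in the PKM2 WT libraries and 2973, 2962 and 3538 RPKM in vehicle (log2 difference -0.83, SE 0.13, limma adjusted p = 0.000206). mt-Nd4 was at 330.2, 376 and 451 RPKM in the PKM2 WT libraries and 198, 151 and 207 RPKM in vehicle (log2 difference -1.05, limma adjusted p = 0.000172). Both were lower in every vehicle library than in any PKM2 WT library. mt-Nd6, encoded alone on the other strand (chromosome M, 13552 to 14070, minus strand), was lower like them, at 146, 172 and 215 RPKM in the PKM2 WT libraries and 89.0, 78.0 and 115 RPKM in vehicle (log2 difference -0.91, limma adjusted p = 0.000873). Its end overlaps that of mt-Nd5 on the opposite strand, and since the strand setting of the counting is unknown, reads of the pair cannot be told apart there. The log2 difference was -0.68 for mt-Cytb (limma adjusted p = 0.00115), -0.74 for mt-Nd5 (0.00168) and -0.51 for mt-Atp8 (0.00535).

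mt-Nd3 alone was higher in vehicle, at 422, 438 and 402 RPKM in the PKM2 WT libraries and 904, 669 and 776 RPKM in vehicle (log2 difference 0.88, SE 0.17, limma adjusted p = 0.00103). The groups did not overlap. It lies between mt-Co3 and mt-Nd4l, neither of which passed. mt-Nd1, the first subunit gene after the ribosomal RNAs, was at 950.2, 946 and 1257 RPKM in the PKM2 WT libraries and 1028, 979.6 and 1276 RPKM in vehicle (log2 difference 0.06, limma adjusted p = 0.709), and mt-Nd2 had a difference of -0.35 (adjusted p = 0.121). Their groups overlapped. The ribosomal RNAs of the same genome, mt-Rnr1 and mt-Rnr2, were lower in vehicle, with log2 differences of -1.36 and -1.28 (limma adjusted p = 9.60e-06 and 6.01e-06), as were the non-polyadenylated Rn7sk and Rn7s2 (-1.10 and -0.76). Rn7s1, also non-polyadenylated, did not pass (-0.61, limma adjusted p = 0.0837). The sources name a poly(A)-selected kit and also total RNA sequencing, and the part of library preparation in the mitochondrial values was not tested.

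One library stood apart for a group of neighbouring mitochondrial genes. PKM2 WT replicate 3 had mt-Co2 at 2461 RPKM against 1161 and 892 in the other PKM2 WT libraries, mt-Atp6 at 1455 against 627 and 552, and mt-Co3 at 3417 against 1979 and 1555. The ratio to the mean of the other PKM2 WT libraries was 2.40 for mt-Co2, 2.47 for mt-Atp6 and 1.93 for mt-Co3. It was 2.06 for mt-Nd4l, a gene of low level that follows mt-Nd3. It was 1.30 for mt-Co1 and 0.936 for mt-Nd3, the genes on either side, and 1.18 for mt-Atp8, which lies between mt-Co2 and mt-Atp6. The same library had the highest granulocyte, basophil and mast cell sum, given above, whose part was not tested. Without it the median of the mitochondrial members was -0.43 in place of -0.68, and the counts past the threshold were again 1 higher and 8 lower. The log2 difference of mt-Co2 was -0.42 in place of -0.84 (limma adjusted p = 0.0365 without it and 0.0286 with it) and that of mt-Atp6 -0.56 in place of -0.99 (0.000356 and 0.0109). mt-Co3 did not pass with it (-0.56, adjusted p = 0.0512) or without it (-0.24).

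The genes of ATP synthase subunits 8 and 6 overlap, and their stretch of 43 bases is shown because reads there fit both. It runs from the start codon of mt-Atp6 to the stop codon of mt-Atp8, both in capitals (GENCODE M21, GRCm38).
mt-Atp8 and mt-Atp6, chrM:7927-7969, plus strand: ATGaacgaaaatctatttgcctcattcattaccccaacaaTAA
The pair is known to be carried on a single RNA, yet mt-Atp8 (204 bases) was listed 8.20, 8.89 and 4.09 times as high as mt-Atp6 (681 bases) per length in PKM2 WT and 9.56, 8.21 and 10.4 times in vehicle. The low ratio was that of PKM2 WT replicate 3. The other overlapping pair on one RNA ran the opposite way, with mt-Nd4 (1378 bases) at 12.4, 8.44 and 6.15 times mt-Nd4l (297 bases) in PKM2 WT and 5.57, 4.43 and 6.25 times in vehicle. mt-Nd4l was at 26.7, 44.5 and 73.3 RPKM in the PKM2 WT libraries, 14.2 and 29.9 in PKM2 KO and 35.5, 34.1 and 33.2 in vehicle. In TEPP-46 it was at 20.5 and 39.0 RPKM and listed at 0 in replicate 3. The part of read assignment in these ratios was not tested.

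**Figure D2:**
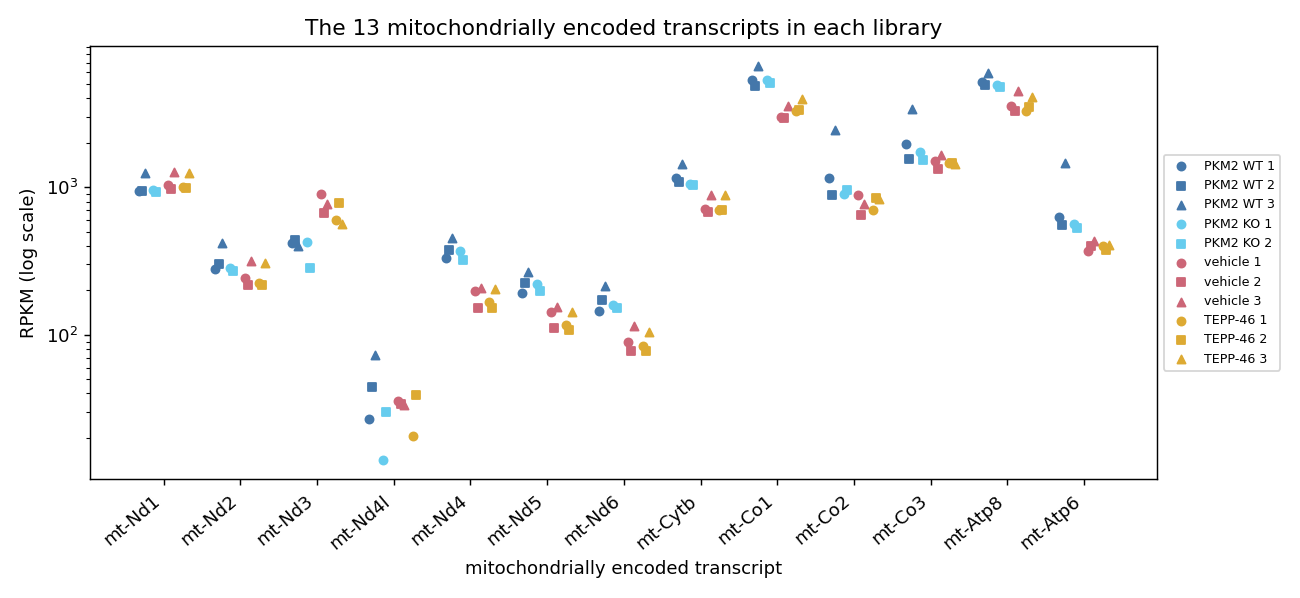
RPKM of the 13 mitochondrially encoded transcripts on a log axis, 1 point per library, coloured by group and shaped by replicate; the value of 0 for mt-Nd4l in TEPP-46 replicate 3 cannot be drawn. Levels run from below 100 RPKM for mt-Nd4l to 6678 RPKM for mt-Co1, and PKM2 WT replicate 3 stands out at mt-Co2, mt-Co3 and mt-Atp6.

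Summed over members, the balance of the genomes differed between the experiments. The 85 nuclear members together held 9180, 8482 and 8433 RPKM in PKM2 WT and 12798, 13337 and 13219 RPKM in vehicle, a ratio of means of 1.51. The 13 mitochondrial members held 17766, 16374 and 24470 RPKM in PKM2 WT and 12632, 11534 and 14620 RPKM in vehicle, a ratio of 0.662. Neither sum overlapped between the groups. By complex, the nuclear sum was higher in vehicle by 1.44-fold for complex I, 1.75-fold for II, 1.39-fold for III, 1.39-fold for IV and 1.71-fold for V, while that of the complex I assembly factors was 1.05-fold. The mitochondrial sum was 0.978 of PKM2 WT for complex I, 0.622 for III, 0.573 for IV and 0.670 for V. As a share of all summed RPKM, the Rn7 genes included, the nuclear members held 0.561% to 0.656% in PKM2 WT and 1.08% to 1.29% in vehicle, whereas the mitochondrial shares, 1.08% to 1.90% and 0.932% to 1.43%, overlapped. On that scale the median of all genes itself shifted by 0.33 on the log2 scale, and the nuclear and mitochondrial medians were 1.05 and -0.32. The ratio of the sums does not depend on scaling. Mitochondrial over nuclear RPKM was 1.94, 1.93 and 2.90 in PKM2 WT, 2.04 and 1.96 in PKM2 KO, 0.987, 0.865 and 1.11 in vehicle and 0.978, 0.950 and 1.12 in TEPP-46. The 5 genotype libraries were above the 6 of the drug experiment, and within each experiment the groups overlapped.

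**Figure D3:**
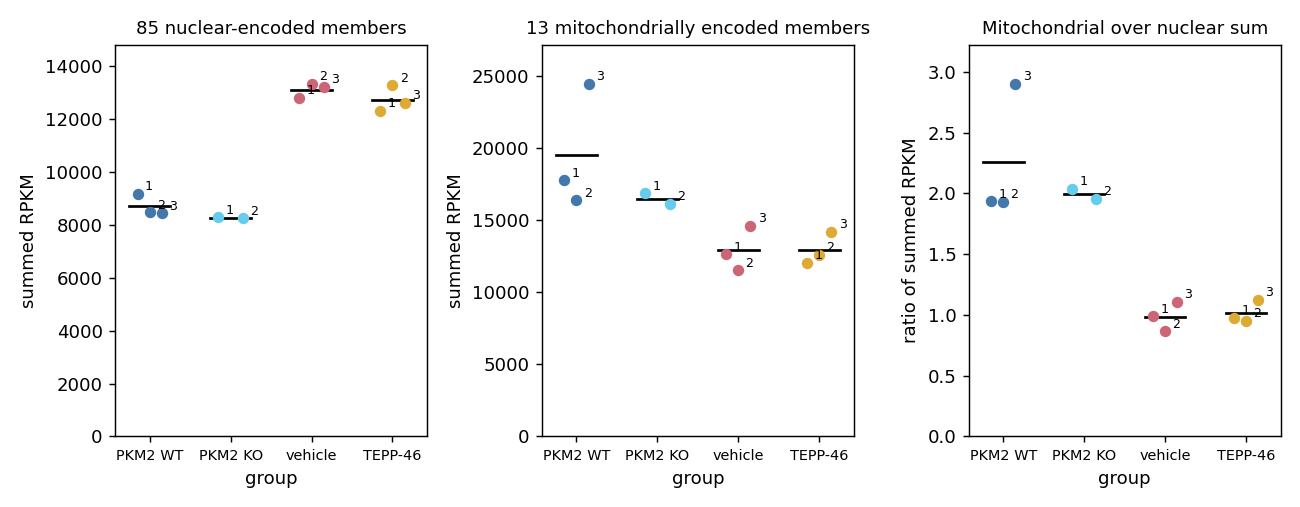
Summed RPKM of the nuclear members (left), of the mitochondrial members (middle) and their ratio (right), with 1 numbered point per library and a bar at the group mean; all y axes start at 0. The nuclear sum is higher and the mitochondrial sum lower in vehicle and TEPP-46 than in PKM2 WT and PKM2 KO, and PKM2 WT replicate 3 has the highest ratio, 2.90.

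Genes that serve the chain, some of them as parts of it such as Cycs, were read from lists chosen by function. Their counts stand beside 38.6% of all genes higher in vehicle and 36.7% lower, shares that some of the lists do not exceed. The electron carriers and coenzyme Q synthesis list had 11 of 17 tested genes higher in vehicle than in PKM2 WT and 4 lower. Cycs, cytochrome c itself, was at 27.7, 30.3 and 29.3 RPKM in the PKM2 WT libraries and 133, 122 and 147 RPKM in vehicle (log2 difference 2.16, SE 0.08, limma adjusted p = 2.11e-08), with no overlap. Coq7, a hydroxylase of coenzyme Q synthesis, was at 3.48 and 15.3 RPKM (limma adjusted p = 2.21e-07) and Pdss1, which makes its side chain, at 3.99 and 12.0 RPKM (2.31e-06). Adck3, the coenzyme Q kinase-like Coq8a, fell from 9.97 to 1.44 RPKM (4.76e-08). Of 13 complex I assembly factors, Ndufaf1 to Ndufaf7 included and Atp5sl not, 8 were higher and 2 lower. Of complex IV assembly factors the counts were 13 of 21 and 4. The complex V list had 4 of 6 higher, Usmg5 and 2010107E04Rik among them, and 0 lower. Cox17, a copper chaperone of complex IV, was at 117 and 250.2 RPKM (1.30e-06), and Cox20, a chaperone of the mt-Co2 protein, at 87.3 and 40.5 (7.45e-06), lower in vehicle. The complex III list had 2 of 5 higher and 1 lower, and the complex II list 0 of 3 higher and 2 lower. Of 11 genes of cristae and cardiolipin, 9 were higher and 1 lower, led by Apoo, a component of the MICOS complex, at 5.59 and 19.6 RPKM (5.75e-07), and the scaffold gene Phb, at 27.0 and 117 RPKM (1.41e-06).

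Among genes that serve the mitochondrial genome, those of RNA handling were mostly higher in vehicle. Of 19 genes of mitochondrial RNA processing and stability, 16 were higher in vehicle and 2 lower. Tbrg4 (FASTKD4), which stabilises mitochondrial mRNAs, was at 11.8, 14.8 and 15.3 RPKM in the PKM2 WT libraries and 44.6, 39.4 and 46.3 RPKM in vehicle (log2 difference 1.58, limma adjusted p = 1.05e-06). Slirp, which protects them from decay, was at 35.3 and 68.6 RPKM (2.14e-06) and Elac2, which cuts tRNA 3′ ends, at 9.72 and 21.7 RPKM (8.73e-06). The list of mitochondrial DNA transcription and replication had 6 of 16 higher and 5 lower, near the shares of all genes (38.6% and 36.7%). Top1mt, the mitochondrial topoisomerase, was at 2.17 and 6.99 RPKM (0.000103) and Ssbp1 at 29.6 and 48.1 RPKM (0.000123). Mterf1a, at 12.0 and 7.74 RPKM (0.000116), and Mterf2, at 7.64 and 4.89 RPKM (0.000246), were lower in vehicle. The transcription factor Tfam (0.28, adjusted p = 0.0734) and the polymerase Polrmt (0.15, 0.542) did not pass. Of 10 transcriptional regulators of the chain, 4 were higher, about the share of all genes, and 1 lower. Myc was at 22.2 and 75.2 RPKM (2.02e-08) and the PGC-1 related coactivator Pprc1 at 3.36 and 15.3 RPKM (8.00e-06). Of the factors whose motifs are shown above, Nrf1 (0.08, adjusted p = 0.222) and Gabpa (0.03, 0.847) did not pass, the GABP partner Gabpb1 was higher (0.54, 3.02e-06) and Yy1 was lower (-0.44, 0.000504). Tfam, Polrmt, Nrf1, Gabpa and Yy1 were named after their values were seen. All p-values in this paragraph and the last are limma's, adjusted over all genes.

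The genotype comparison asks what loss of PKM2 does to these transcripts. None of the 98 members passed in the libraries labelled PKM2 KO against those labelled PKM2 WT (limma, adjusted p under 0.05), where 0.018% of all genes were higher and 0.0808% lower. At an unadjusted p under 0.05, 12 nuclear members were lower and 0 higher, against 5.53% and 2.41% of all genes, and 0 of the mitochondrial members in either direction. The log2 difference was below 0 in 75 of 85 nuclear and 13 of 13 mitochondrial members, and in 49.7% of all genes. The medians were -0.07 and -0.22, and 0.00 over all genes. Between the same groups the T cell marker sum averaged 93.3 RPKM in PKM2 WT and 15.3 in PKM2 KO. That gap was mostly 1 gene, Cd3g, whose PKM2 WT range was 69.9 to 100.2 RPKM, against 6.43 to 14.6 for PKM2 KO. Cd3d, the other listed T cell marker, overlapped, with a range of 5.81 to 10.1 RPKM against 3.01 to 6.54. The granulocyte, basophil and mast cell sum averaged 118 and 57.5 RPKM. The part of these markers in the differences of the members was not tested. Every PKM2 KO library was below every PKM2 WT library for 25 nuclear and 2 mitochondrial members (mt-Cytb and mt-Atp8), where 14.5% of all genes were so, and the reverse held for 1 member, Atp5l, where 10.2% of all genes were so. The nuclear median was -0.03 without PKM2 WT replicate 1, which had the highest nuclear sum of its group, and the mitochondrial median was -0.05 without PKM2 WT replicate 3.

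Among the 98 members, Ndufc1 had the smallest p of the genotype comparison. This small membrane subunit of complex I (chromosome 3, 51404677 to 51408988, GRCm38) was at 46.1, 38.7 and 39.8 RPKM in the PKM2 WT libraries and 26.4 and 30.9 RPKM in PKM2 KO, a log2 difference of -0.52 (SE 0.11, limma adjusted p = 0.456). Both PKM2 KO libraries were below all 3 of PKM2 WT. Ndufs5 was at 54.4, 54.4 and 53.7 RPKM in the PKM2 WT libraries and 46.6 and 47.9 RPKM in PKM2 KO (log2 difference -0.19, limma adjusted p = 0.461). Ndufv2 was at 39.9, 39.9 and 43.4 RPKM in the PKM2 WT libraries and 32.8 and 34.8 RPKM in PKM2 KO (-0.27, limma adjusted p = 0.470). Cox5b, at 155, 160.4 and 143 RPKM in the PKM2 WT libraries and 131 and 126 RPKM in PKM2 KO (-0.24, limma adjusted p = 0.513), Cox7b and Ndufa4 had the smallest p in complex IV, and Uqcrb and Uqcrq in complex III. For each of these genes the groups were apart but the adjusted p did not pass.

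Sdhd and Atp5l lie on chromosome 9, as Pkm does. Sdhd, whose start is 9.1 Mb from that of Pkm, was at 49.6, 43.8 and 41.0 RPKM in the PKM2 WT libraries and 33.4 and 35.6 RPKM in PKM2 KO (log2 difference -0.36, SE 0.09, limma adjusted p = 0.513). Atp5l, a membrane subunit of ATP synthase 14.7 Mb away, was at 279, 238 and 227 RPKM in the PKM2 WT libraries and 290.4 and 285 RPKM in PKM2 KO (log2 difference 0.22, limma adjusted p = 0.674). The groups did not overlap for either gene, in opposite directions. Cox5a, 2.1 Mb from Pkm, was at 88.4, 76.8 and 78.3 RPKM in the PKM2 WT libraries and 79.0 and 71.7 RPKM in PKM2 KO, with overlap. The part of a chromosome segment linked to the floxed allele was not tested. mt-Co2, mt-Atp6 and mt-Co3, the genes high in PKM2 WT replicate 3, had the largest mitochondrial differences apart from mt-Nd4l, -0.56, -0.54 and -0.42. Their PKM2 KO values, such as 896 and 959 RPKM for mt-Co2, stood near those of PKM2 WT replicate 2. None of the serving lists had a gene past the threshold in this comparison.

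TEPP-46 against vehicle asks how an activated PKM2 bears on the chain. No member passed for TEPP-46 against vehicle in this fit, and neither did any other gene (limma, adjusted p under 0.05, with 0.0% of all genes in each direction). The authors' deposited list for this comparison, titled with a false discovery rate of 0.05, holds 24 genes, none of them a member. Why that list and this fit differ was not tested. At an unadjusted p under 0.05, 8 nuclear members were lower and 0 higher and 0 mitochondrial members either, against 4.68% and 4.75% of all genes. The log2 difference was below 0 in 65 of 85 nuclear and 10 of 13 mitochondrial members, and in 56.6% of all genes. The medians were -0.05 for both, and -0.02 over all genes. Every TEPP-46 library was below every vehicle library for 12 nuclear members (7.71% of all genes) and above for 3 (7.61%), Ndufa1, Ndufa3 and Atp5f1. The mitochondrial median was 0.07 without vehicle replicate 3 and -0.14 without vehicle replicate 2 or TEPP-46 replicate 3.

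Among the 98 members, Ndufb6 and Cyc1 had the smallest p of the drug comparison. Both are described above as higher in vehicle than in PKM2 WT, a comparison that shares the vehicle libraries. Ndufb6 was at 63.3, 65.3 and 64.5 RPKM in vehicle and 53.5, 58.4 and 57.6 RPKM in TEPP-46 (log2 difference -0.19, SE 0.05, limma adjusted p = 0.372). Cyc1 was at 73.3, 74.4 and 77.2 RPKM in vehicle and 69.0, 65.1 and 66.3 RPKM in TEPP-46 (-0.16, limma adjusted p = 0.373). Every TEPP-46 library was lower for both, by a small margin. Atp5b was at 904, 912 and 926 RPKM in vehicle and 809, 853 and 819.5 RPKM in TEPP-46 (-0.14, limma adjusted p = 0.444), and Atp5a1 at 329 and 301 RPKM (-0.13, 0.430). Uqcr10, Uqcrfs1 and Atp5g2 were also among the 8, with log2 differences of -0.17, -0.15 and -0.15. By complex, the nuclear medians lay between -0.11 for the complex I assembly factors and for complex III, and -0.02 for complex IV. The 95% interval was -0.21 to 0.08 for Sdha, -0.12 to 0.45 for mt-Co1 and -0.34 to 0.35 for mt-Cytb, which bound the differences these libraries could hide. None of the serving lists had a gene past the threshold.

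**Figure D4:**
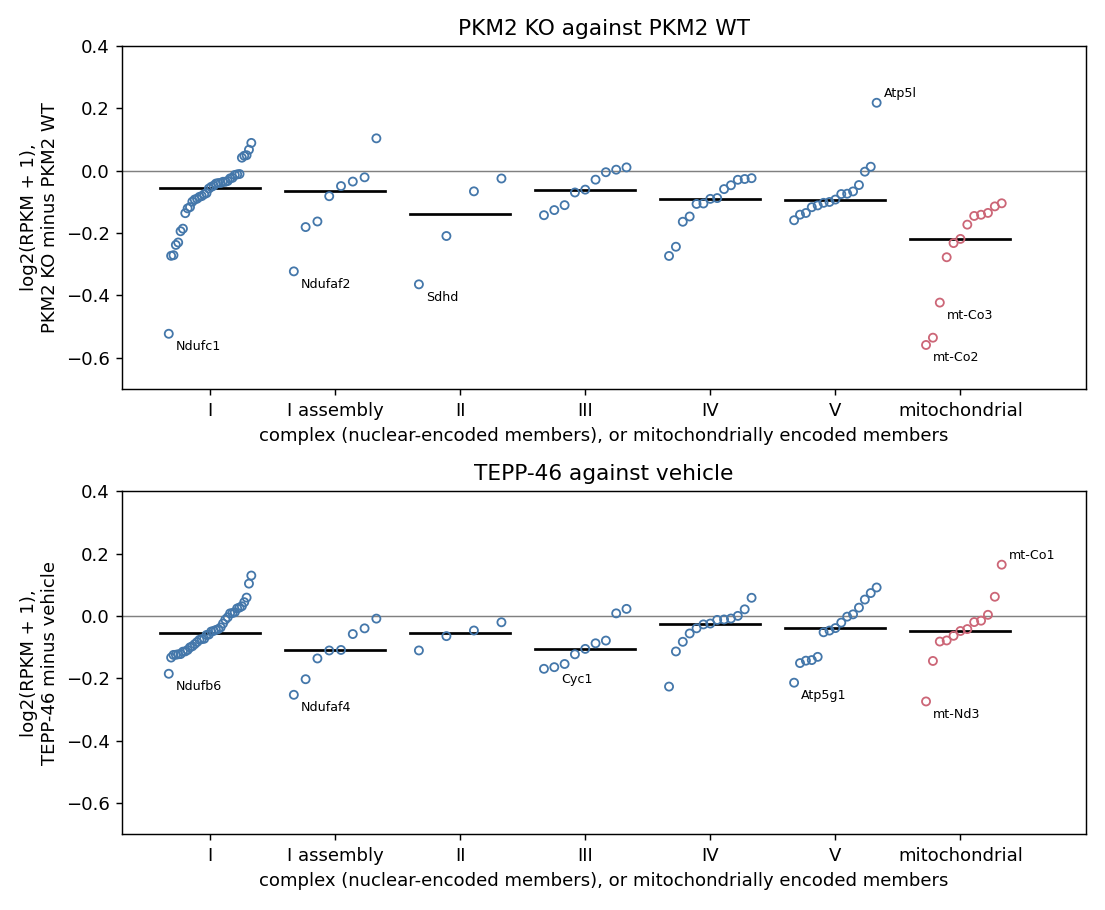
Differences of mean log2(RPKM + 1) for PKM2 KO minus PKM2 WT (top) and TEPP-46 minus vehicle (bottom), 1 point per member by complex and ordered by value, with bars at the medians over all members. All points are open since no member passed an adjusted p of 0.05; mt-Nd4l, at -1.07 and -1.89 and listed at 0 in 1 TEPP-46 library, is off the scale. Most points lie below 0, with nuclear medians of -0.07 and -0.05.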

How the data were processed

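RNA sequencing of cultured NK cells gave 1 table of RPKM per gene and library, deposited by the authors. The submitters' processing notes name STAR and mm10, and the sources used here do not give the counting, its strand setting or the depth. Of 12 labelled samples 11 had a column whose name matched. The 5 library columns without a match were not used, which leaves PKM2 KO with 2 libraries. The authors also deposited 2 lists with fold ratios and p-values, of 24 and 11 genes. None of the 98 members is in them.

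Identifiers were matched to GENCODE M21 for 11675 of 11706 genes. The 11142 genes averaging 1 RPKM or more across 11 libraries were fitted on log2(RPKM + 1) with limma 3.58.1 (trended spread, R 4.3.3), and p-values were adjusted by Benjamini-Hochberg over all genes in each of 3 comparisons. The threshold was an adjusted p of 0.05. PKM2 KO against PKM2 WT and TEPP-46 against vehicle were fitted on their own groups, and vehicle against PKM2 WT with all 4 groups. The labels call the libraries biological replicates without naming animals, so the p-values speak only of how these libraries vary. Named members were the mitochondrial genes, core subunits, isoforms, the highest and lowest in each complex, the 3 with the smallest p per complex and comparison, and the 8 largest differences each way in vehicle against PKM2 WT. Not every member that the rule names is reported here. Up to 4 genes were named per list, by smallest p. Ndufa1, Ndufa6, Atp5f1 and Atp5l were named outside this rule, after their values were seen. Members and lists were chosen with earlier results of these data known. Alternatives were another pseudocount (0.1 and 5), no filter, other scalings, a replicate block, another spread and each library left out. The script was tested on simulated data.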

Additional observations from a re-analysis of the deposited data

How the results depend on the processing

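In vehicle against PKM2 WT, 84 members passed the threshold, and 81 to 85 did with 1 library left out. The nuclear median of 0.70 ranged from 0.673 to 0.751 and the mitochondrial median of -0.68 from -0.798 to -0.429 with 1 library left out, the last without PKM2 WT replicate 3. With quantile normalization the nuclear median was 0.473, with 59 nuclear members higher and 12 lower in place of 69 and 6, and Cox4i1 and Sdha were called lower, at -0.134 and -0.158 (limma adjusted p = 0.0348 and 0.0231). The cause was not tested. With equal summed RPKM over all genes, a scaling chosen after seeing the data, the ratio of vehicle to PKM2 WT was 1.94 for the nuclear sum and 0.842 for the mitochondrial sum, in place of 1.51 and 0.662. Of 1170 values for 65 named members under 18 settings, 1138 stayed on their side of the threshold, 6 of them with a change of sign while not called, 22 lost the call, 8 gained it and 2 were the reversals above.

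For PKM2 KO against PKM2 WT, 11 of all genes passed (limma). The count was 7 with a pseudocount of 5, 0 with the replicate block, 25 with the spread from all 4 groups, and 5 to 21 with 1 library left out, the lowest without PKM2 WT replicate 2, the highest when PKM2 KO replicate 2 was dropped. No member passed in any of these settings. The nuclear median ranged from -0.101 to -0.032 and the mitochondrial one from -0.275 to -0.0541. With 1 PKM2 KO library dropped, the other was taken to vary as PKM2 WT does. For TEPP-46 against vehicle, 0 of all genes passed, 1 with a pseudocount of 0.1, 1 with equal summed RPKM without the Rn7 genes, 3 with the replicate block, and 0 to 3 with 1 library left out. No member was among the calls. The nuclear median ranged from -0.0762 to -0.0318 and the mitochondrial one from -0.143 to 0.0697, above 0 without vehicle replicate 3 or TEPP-46 replicate 2. Same-numbered libraries correlated in their deviations from the group means with r of 0.0702 and -0.0967 in the genotype experiment and 0.0523, 0.284 and 0.275 in the drug experiment. With 2 PKM2 KO libraries, the deviations of replicate 1 are those of replicate 2 with the sign turned. The genotype values therefore cannot decide on pairing. In the drug experiment not every pair exceeded 0.1, and the numbers were not taken to pair the libraries. Each library there still correlated best with its own number, a hint from the data and not the design. The unknown depth limits what can be said of low genes such as mt-Nd4l and Cox7a1.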
